A study of Mus musculus with 6 samples.

Results

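The muscleblind-like (MBNL) and CUGBP Elav-like family (CELF) genes encode RNA-binding proteins that choose which exons enter an mRNA, and their expression was followed in cultured mouse hippocampal neurons under depolarisation. The 9 genes are Mbnl1 (ENSMUSG00000027763), Mbnl2 (ENSMUSG00000022139), Mbnl3 (ENSMUSG00000036109), Celf1 (ENSMUSG00000005506), Celf2 (ENSMUSG00000002107), Celf3 (ENSMUSG00000028137), Celf4 (ENSMUSG00000024268), Celf5 (ENSMUSG00000034818) and Celf6 (ENSMUSG00000032297). They were taken by symbol from the 21553 genes with values, of 22667 listed, and all 9 passed the filter on low counts. The neurons came from E16.5 embryos of C57bl/6 mice and spent 10 days in culture. There were 6 libraries, 2 of untreated neurons, 2 of neurons kept in KCl (55 mM) over 0.5 h and 2 of neurons kept in it over 3 h. Raised KCl depolarises the membrane and lets calcium in, which mimics strong activity. The labels name no mutation in any group, and all are primary cultures. The design text speaks of biological duplicates but names no culture or litter behind each. The p-values therefore rest on a spread between libraries whose source the labels do not give.

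MBNL proteins bind RNA through zinc fingers and, depending on where they sit, favour or block an exon. Their activity grows as tissues mature, and MBNL2 is known as the main member in brain. CELF proteins bind GU-rich RNA through RNA recognition motifs. They often act on the same exons in the opposite direction, and in the cytoplasm they affect mRNA decay and translation. In myotonic dystrophy, RNA with expanded CUG repeats from the DMPK gene holds MBNL proteins in nuclear foci while CELF1 protein rises, and fetal splice forms return in muscle, heart and brain. The deposited values are totals per gene, so they show how much RNA each regulator had and not which exons were used.

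RefSeq promoter windows (GRCm38.p6, a later build than the mm9 of the deposited data) were found for 8 of the 9 genes, in 24 windows, with none for Celf4. The 250 bases before each start were searched on both strands for the full cAMP response element (TGACGTCA), its shorter core (TGACG, which also lies inside the full one), the AP-1 site (TGANTCA) and the E-box (CACGTG), which are bound by factor families that respond to activity. The windows below belong to Mbnl2, Mbnl1 and Celf1, whose 3 h libraries all lay above the untreated ones, and to Celf3 and Celf6, which hold the full element and whose 3 h libraries lay below. Capitals mark the matches, and each run reads 5′ to 3′ on the plus strand.
Mbnl2, chr14:120275419-120275668: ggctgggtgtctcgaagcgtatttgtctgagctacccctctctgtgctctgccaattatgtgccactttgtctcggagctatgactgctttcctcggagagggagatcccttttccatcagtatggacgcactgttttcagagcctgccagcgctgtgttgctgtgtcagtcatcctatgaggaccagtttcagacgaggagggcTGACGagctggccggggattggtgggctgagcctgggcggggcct
Mbnl1, upstream start, chr3:60472580-60472829: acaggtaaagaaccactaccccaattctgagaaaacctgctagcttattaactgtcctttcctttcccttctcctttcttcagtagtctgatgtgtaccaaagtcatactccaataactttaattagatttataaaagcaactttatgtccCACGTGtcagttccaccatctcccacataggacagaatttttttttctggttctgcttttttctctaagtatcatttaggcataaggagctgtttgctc
Mbnl1, downstream start, chr3:60500929-60501178: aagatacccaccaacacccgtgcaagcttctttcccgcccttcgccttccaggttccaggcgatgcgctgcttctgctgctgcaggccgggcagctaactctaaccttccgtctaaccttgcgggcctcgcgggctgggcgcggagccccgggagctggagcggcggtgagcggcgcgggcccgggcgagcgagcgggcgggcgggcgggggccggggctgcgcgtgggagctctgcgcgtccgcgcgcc
Celf1, chr2:90940147-90940396: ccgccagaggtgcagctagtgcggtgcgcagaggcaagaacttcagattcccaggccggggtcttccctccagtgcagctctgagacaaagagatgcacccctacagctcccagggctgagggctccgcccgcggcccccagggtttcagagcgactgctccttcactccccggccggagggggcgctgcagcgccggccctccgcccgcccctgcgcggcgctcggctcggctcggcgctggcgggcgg
Celf3, 1 of its 7 windows, chr3:94484077-94484326: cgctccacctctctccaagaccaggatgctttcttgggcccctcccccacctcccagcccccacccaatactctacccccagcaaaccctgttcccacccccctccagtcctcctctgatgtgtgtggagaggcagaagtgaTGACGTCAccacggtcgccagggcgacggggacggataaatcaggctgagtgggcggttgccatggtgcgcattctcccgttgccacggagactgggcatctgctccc
Celf6, upstream start, chr9:59578087-59578336: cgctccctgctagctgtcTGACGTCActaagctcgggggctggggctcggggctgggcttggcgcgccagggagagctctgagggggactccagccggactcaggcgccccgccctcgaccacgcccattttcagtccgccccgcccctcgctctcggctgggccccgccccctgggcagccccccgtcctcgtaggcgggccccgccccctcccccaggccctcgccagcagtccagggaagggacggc
The Mbnl2 window holds 1 core, 41 to 45 bases before the start, and no full element. The upstream Mbnl1 window holds 1 E-box, and neither the downstream Mbnl1 window nor the Celf1 window has a match. The full element is in 4 windows of 2 genes, 3 overlapping ones of Celf3 and 1 of Celf6. The AP-1 site is in 1 window each of Celf2 and Celf5. Over all 32851 windows of the table, 1.55% hold the full element, 17.8% the core, 6.75% the AP-1 site and 6.02% the E-box. A match is only a run of letters.

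The libraries held 98882007 to 141865913 counts, and the activity gene Fos had 7.98 and 8.14 cRPKM in untreated neurons, with 237 and 223 after 0.5 h and 344 and 271 after 3 h. The cRPKM is the authors' count scaled to gene length and to the reads of the library. The length used for each gene is not given in the sources used here. Comparisons of level between genes, and sums and ratios over genes, therefore rest on those lengths. Pan-neuronal markers summed to between 1395 and 2194 cRPKM over the 6 libraries, and astrocyte markers to between 650 and 1450, so glial RNA was present too. Cx3cr1, Tmem119 and Itgam of microglia, Cdh5 and Tek of endothelium and Des of muscle were below 0.1 cRPKM in every library. Other members of the same lists were not. Aif1 of microglia had 0.52 to 0.83 cRPKM, Kdr of endothelium 0.57 to 1.08 and Dcn of fibroblasts 20.1 to 42.1. Dcn stood alone in its list: Col1a1 had 0.13 to 1.91 cRPKM, Col1a2 0.04 to 2.71, Lum 0.43 to 1.10 and Acta2 at most 0.38. The replicate numbers stood apart in some genes. The astrocyte gene Gfap had 22.4, 22.8 and 24.6 cRPKM in the replicate 1 libraries (untreated, 0.5 h, 3 h). Those of replicate 2 had 307, 335 and 475. Other astrocyte markers were closer: in the untreated libraries Slc1a3 had 390 and 398 cRPKM, and Gja1 129 and 135. Since such differences recurred over the groups, each test was also run with replicate number as a block.

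In untreated neurons 5 of the 6 CELF genes stood above every MBNL gene. Celf4 stood highest, at 97.2 and 101 cRPKM. Celf2 followed at 80.2 and 76.9, Celf5 at 60.2 and 61.9, Celf3 at 49.95 and 48.4, and Celf1 at 32.3 and 30.4. Celf6 had 16.7 and 18.3 cRPKM. Mbnl2, at 20.3 and 30.1 cRPKM, stood between Celf1 and Celf6, and Mbnl1 was lower at 7.96 and 8.45. Mbnl3, which elsewhere acts mainly in development and regeneration, was close to absent at 0.04 and 0.09 cRPKM. It had 10 to 28 counts in any library, too few to read a change from. No neighbours in this order overlapped in the untreated libraries.

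**Figure D1:**
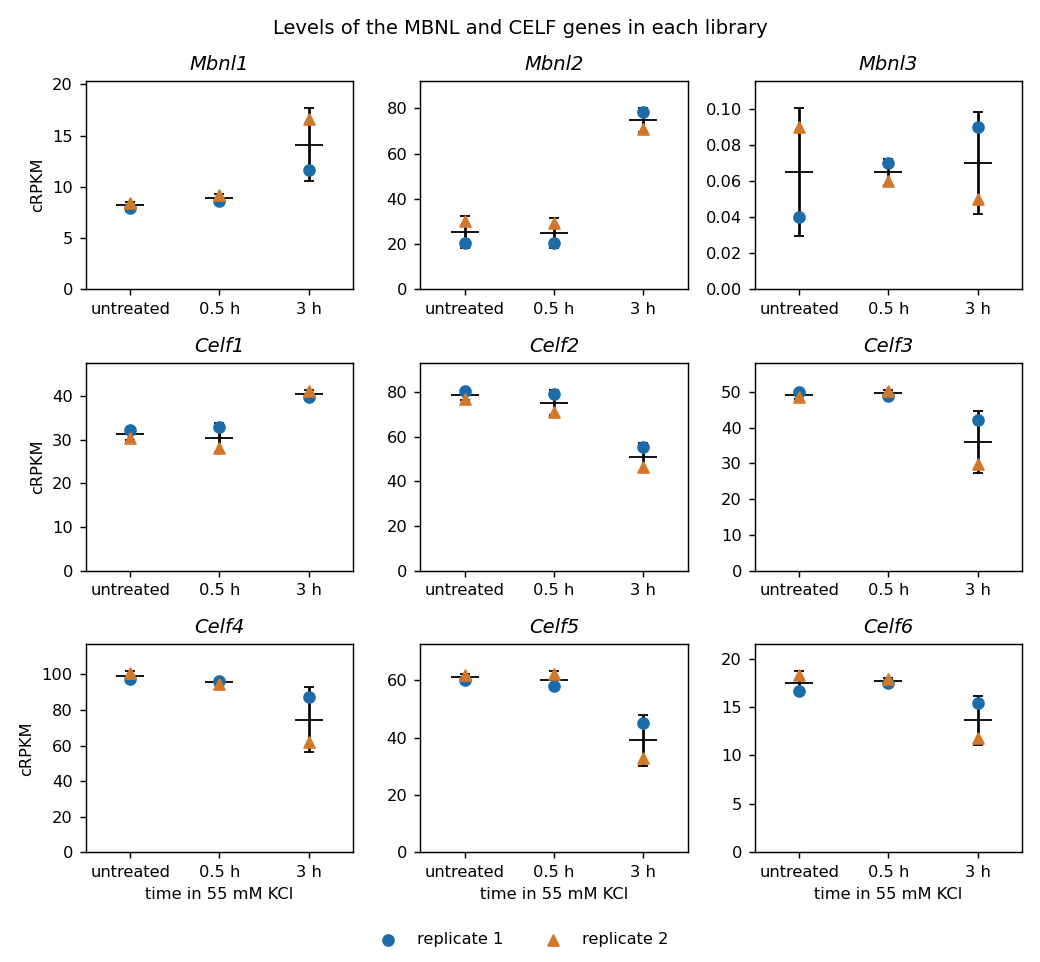
Level of each MBNL and CELF gene (cRPKM, vertical axes from 0 with their own scale) in untreated neurons and after 0.5 h and 3 h in 55 mM KCl. Circles are replicate 1, triangles replicate 2, bars the mean and SD of 2 libraries; Mbnl1, Mbnl2 and Celf1 stand higher at 3 h, and Celf2 to Celf6 lower.

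After 3 h in KCl, Mbnl2 and Mbnl1 rose. Mbnl2 had 78.6 and 71.0 cRPKM at 3 h, against 20.3 and 30.1 in untreated neurons. Both 3 h libraries were well above both untreated ones, and the mean was 74.8 ± 5.4 cRPKM at 3 h and 25.2 ± 6.9 in untreated neurons (SD, n = 2 each). The log2 fold change was 1.63 ± 0.25 (SE), a 3.09-fold rise with a 95% interval of 2.02 to 4.73, and edgeR's adjusted p was 0.016. Mbnl1, the member best known from muscle, had 11.6 and 16.6 cRPKM at 3 h, against 7.96 and 8.45 in untreated neurons. Its groups did not overlap either, but its 3 h libraries differed from each other more than the untreated ones did. Its log2 fold change was 0.83 ± 0.15 (1.78-fold, interval 1.37 to 2.30; adjusted p = 0.024, edgeR).

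Mbnl3 had 0.09 and 0.05 cRPKM at 3 h and 0.04 and 0.09 in untreated neurons, and the groups overlapped. Its log2 difference of 0.13 had an interval of −1.14 to 1.41, so a change was not detectable at this depth. At 3 h the MBNL family was thus carried by Mbnl2 and Mbnl1 in every library. These 2 of 9 genes were called higher, where 8.71% of the 15895 genes tested were, and 0 of 9 were called lower, where 6.84% of all genes were (1384 higher and 1088 lower over all genes; 1115 and 1340 when scaled by library totals). The calls of Mbnl2 and Mbnl1 were lost when untreated replicate 1 was left out (adjusted p = 0.080 and 0.12) or untreated replicate 2 was (0.067 and 0.13). In these fits the lone untreated library is assumed to vary like the other groups, and of all genes 58 and 34 were called higher.

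Celf1, which is made in most tissues and also directs mRNA decay, had 39.9 and 41.2 cRPKM at 3 h, against 32.3 and 30.4 in untreated neurons. Both 3 h libraries were above both untreated ones. The log2 difference was 0.43 ± 0.12 (1.34-fold, interval 1.10 to 1.64), with an adjusted p of 0.063 in edgeR, 0.017 with the replicate block and 0.018 in DESeq2. It was therefore called higher only in the fits with the block and in DESeq2, among the fits made.

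The other 5 CELF genes all stood lower at 3 h, by smaller factors than Mbnl2 stood higher. Celf2, the closest relative of Celf1 and abundant in brain, had 55.3 and 46.2 cRPKM at 3 h, against 80.2 and 76.9 in untreated neurons. Its log2 difference was −0.57 ± 0.16 (adjusted p = 0.061, edgeR; 0.012 with the replicate block). Celf5, a member found mainly in neurons, had 45.2 and 32.8 cRPKM at 3 h, against 60.2 and 61.9 in untreated neurons. Its log2 difference was −0.58 ± 0.19 (adjusted p = 0.087, edgeR; 0.043 with the block). For both genes the 3 h libraries lay wholly below the untreated ones, and the call depended on the fit.

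Celf4, whose loss causes seizures in mice, had 87.4 and 61.7 cRPKM at 3 h, against 97.2 and 101 in untreated neurons. Celf3 had 42.1 and 29.9 cRPKM at 3 h, against 49.95 and 48.4 in untreated neurons. Celf6 had 15.4 and 11.8 cRPKM at 3 h, against 16.7 and 18.3 in untreated neurons. In each of these 3 genes the 3 h replicate 2 library was much the lower, and the replicate 1 library lay below the untreated ones by less. The log2 differences were −0.35 ± 0.20 for Celf4, −0.39 ± 0.19 for Celf3 and −0.30 ± 0.16 for Celf6, and edgeR's adjusted p was 0.27, 0.21 and 0.24 (0.13, 0.092 and 0.16 with the block). Their intervals ran from −0.83 to 0.14, from −0.86 to 0.08 and from −0.70 to 0.09, which does not show that they were unchanged. Without 3 h replicate 1, which leaves the lower library alone, edgeR called Celf2 to Celf6 lower (log2 −0.76, −0.71, −0.67, −0.89 and −0.56; adjusted p = 0.029, 0.016, 0.020, 0.013 and 0.023), in a fit that called 11.2% of all genes lower.

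Over the 9 genes, 3 had both 3 h libraries above both untreated ones, where 29.6% of all genes tested did, and 5 had both below, where 32.0% did. With the replicate block 3 were called higher (Mbnl1, Mbnl2 and Celf1) and 2 lower (Celf2 and Celf5), where the block called 18.6% of all genes in each direction and 37.2% in all. The median log2 difference of the 9 was −0.30, beside −0.02 for all genes tested.

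**Figure D2:**
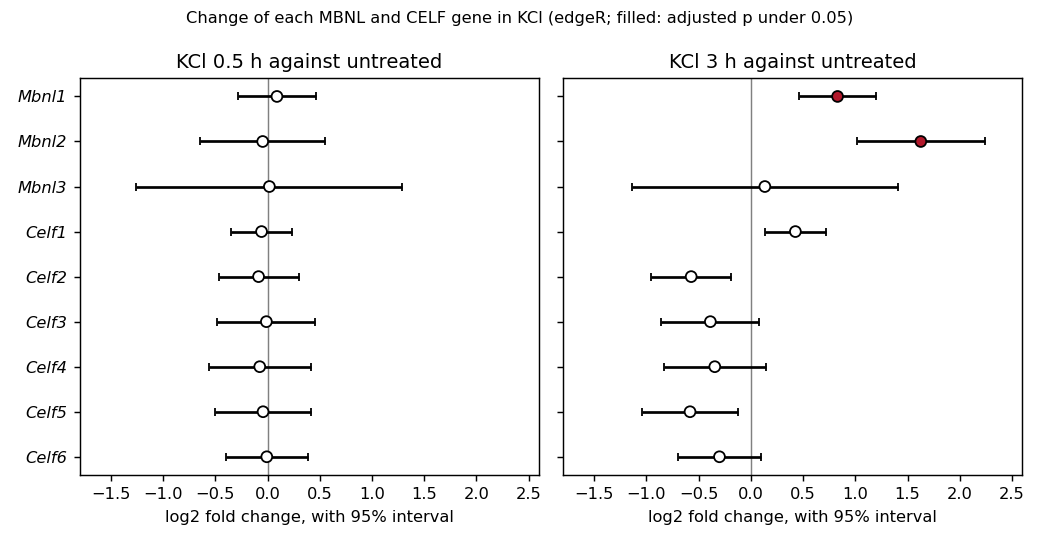
Log2 fold change of each gene against untreated neurons at 0.5 h (left panel) and 3 h (right panel), with 95% intervals from the edgeR fit; filled points have an adjusted p under 0.05. All points at 0.5 h lie close to 0, and at 3 h Mbnl2 (1.63) and Mbnl1 (0.83) are the filled ones.

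Within replicate numbers the directions held for every gene but Mbnl3. Mbnl2 differed by 2.04 in log2 CPM between 3 h and untreated in replicate 1 and by 1.26 in replicate 2. Mbnl1 differed by 0.63 in replicate 1 and 1.00 in replicate 2, and Celf1 by 0.39 and 0.46. Celf2 differed by −0.45 in replicate 1 and −0.71 in replicate 2, and Celf5 by −0.32 and −0.89. Celf3, Celf4 and Celf6 differed by −0.16, −0.07 and −0.03 in replicate 1 and by −0.67, −0.69 and −0.61 in replicate 2. The differences of Celf3 to Celf6 were thus larger in replicate 2, while Mbnl2 moved more in replicate 1. Mbnl3 differed by 1.00 and −0.83.

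**Figure D3:**
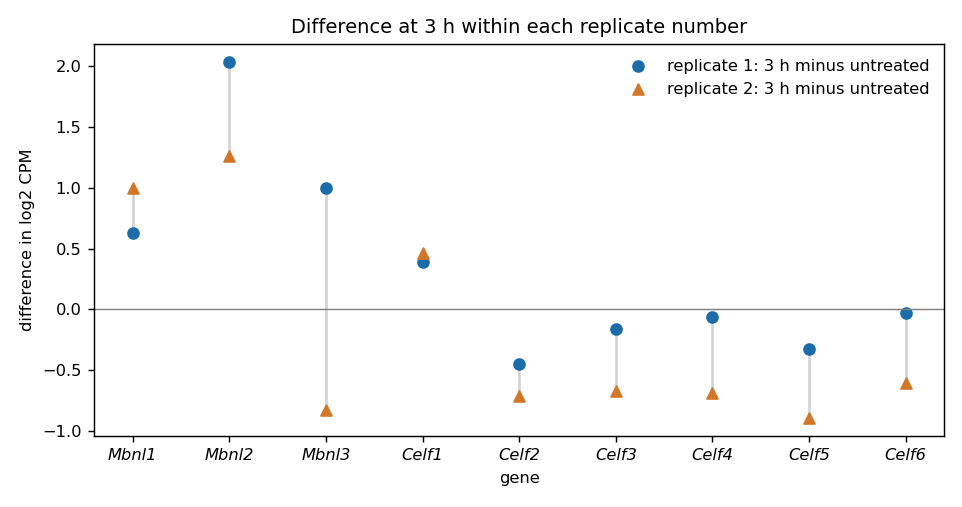
Difference in log2 CPM between the 3 h and the untreated library of the same replicate number, for each gene (circles, replicate 1; triangles, replicate 2). Both points lie above 0 for Mbnl1, Mbnl2 and Celf1 and below 0 for Celf2 to Celf6, where the replicate 2 point is the lower one, and they lie on opposite sides of 0 for Mbnl3.

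Marker sums of neurons and glia are given beside these genes. The 8 pan-neuronal markers summed to 1834 and 1395 cRPKM at 3 h, against 2194 and 2114 in untreated neurons, again lowest in 3 h replicate 2. EdgeR called 0 of the 8 at 3 h, with 1 lower at an unadjusted p under 0.05, the tubulin gene Tubb3. With the block it called 3 lower. Of all genes 6.84% were called lower, and 18.6% with the block. The median log2 difference of the 8 was −0.26. Tubb3 had 253 and 158 cRPKM at 3 h, against 607 and 453 in untreated neurons. Without it the other 7 markers summed to 1581 and 1237 at 3 h and 1587 and 1661 in untreated neurons. In replicate 1 the near-equal sum of these 7 was a net of moves both ways. Nefl (68.0 untreated, 128 at 3 h) and Snap25 (260, 265) were higher at 3 h. Syt1 (155, 123), Eno2 (86.5, 68.8), Rbfox3, Map2 and Stmn2 were lower. The summed CELF level came to 15.6% and 16.03% of the pan-neuronal sum at 3 h and 15.3% and 15.9% in untreated neurons. Without Tubb3, a choice made after seeing the data, it came to 18.04% and 18.07% at 3 h, against 21.2% and 20.3% in untreated neurons, so whether the CELF sum was lower relative to neuronal markers depended on that gene. The summed MBNL level came to 4.92% and 6.28% of the pan-neuronal sum at 3 h, against 1.29% and 1.83% in untreated neurons, and to 5.71% and 7.08% at 3 h, against 1.79% and 2.33% in untreated neurons, without Tubb3. In bulk RNA, fewer cells of a type and less RNA per cell cannot be told apart.

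Astrocyte markers summed to 713 and 1450 cRPKM at 3 h, against 650 and 961 in untreated neurons (0 of 7 called by edgeR; 2 higher and 1 lower at an unadjusted p under 0.05; 4 higher and 1 lower with the block). In replicate 1, where Mbnl2 stood 2.04 and Mbnl1 0.63 log2 units higher at 3 h, their sum was 713 at 3 h and 650 in untreated neurons. In replicate 2, where Mbnl2 stood 1.26 and Mbnl1 1.00 higher, it was 1450 and 961. Gfap alone gave 475 and 307 of these replicate 2 sums, and 24.6 and 22.4 of those of replicate 1. Progenitor markers summed to 80.8 to 105 cRPKM at 3 h and 82.2 to 92.2 in untreated neurons, and those of the oligodendrocyte lineage to 225 to 304 at 3 h and 204 to 294 in untreated neurons. Excitatory neuron markers summed to 291 to 349 at 3 h and 415 to 549 in untreated neurons, and interneuron markers to 262 to 369 at 3 h and 350 to 568 in untreated neurons. Without the block edgeR called 0 members of these 4 lists (the excitatory list had 1 lower, the interneuron list 2 lower, the progenitor list 1 higher and 1 lower and the oligodendrocyte list 0 at an unadjusted p under 0.05). With the block it called 5 of 7 interneuron and 1 of 7 excitatory markers lower, and 4 of 7 progenitor and 1 of 7 oligodendrocyte markers higher. Over all genes tested, edgeR called 8.71% higher and 6.84% lower at 3 h without the block, and 18.6% in each direction with it. Microglial markers summed to at most 1.21 cRPKM in any library, endothelial ones to at most 1.44 and fibroblast and muscle ones to at most 43.1. Dcn made up 42.1 of that last sum. The part of the marker differences above in the CELF and MBNL results was not tested.

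The balance between the families changed with the levels. The untreated libraries had 28.3 and 38.7 cRPKM over the 3 MBNL genes, the 0.5 h ones 28.9 and 38.6, and the 3 h ones 90.2 and 87.6. Over the 6 CELF genes the untreated libraries had 337 and 337 cRPKM, the 0.5 h ones 333 and 324, and the 3 h ones 285 and 224. The CELF sum was 11.9 and 8.71 times the MBNL sum in untreated neurons, 11.5 and 8.38 times at 0.5 h, and 3.16 and 2.55 times at 3 h. Both 3 h ratios lay below all others. With 2 libraries against 2 no exact permutation test can pass a threshold of 0.05, so these sums carry no p.

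Inside the MBNL family Mbnl2 held the larger share throughout. It made up 71.8% and 77.9% of the MBNL sum in untreated neurons, 70.0% and 76.2% at 0.5 h, and 87.1% and 81.0% at 3 h. Inside the CELF family the share of Celf1 was 9.59% and 9.02% in untreated neurons, 9.89% and 8.68% at 0.5 h, and 14.0% and 18.4% at 3 h. The ratio of Celf2 to Celf1 was 2.49 and 2.53 in untreated neurons, 2.40 and 2.53 at 0.5 h, and 1.39 and 1.12 at 3 h. At 3 h the order of the 9 genes opened with Mbnl2 (mean 74.8 cRPKM) beside Celf4 (74.6 ± 18, SD, n = 2), whose libraries overlapped those of Mbnl2. Celf2 came next and did not overlap Celf4. Celf1, Celf5 and Celf3 followed in the order of their means, each overlapping the one before it except Celf1, and Mbnl1 and Celf6 overlapped each other.

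**Figure D4:**
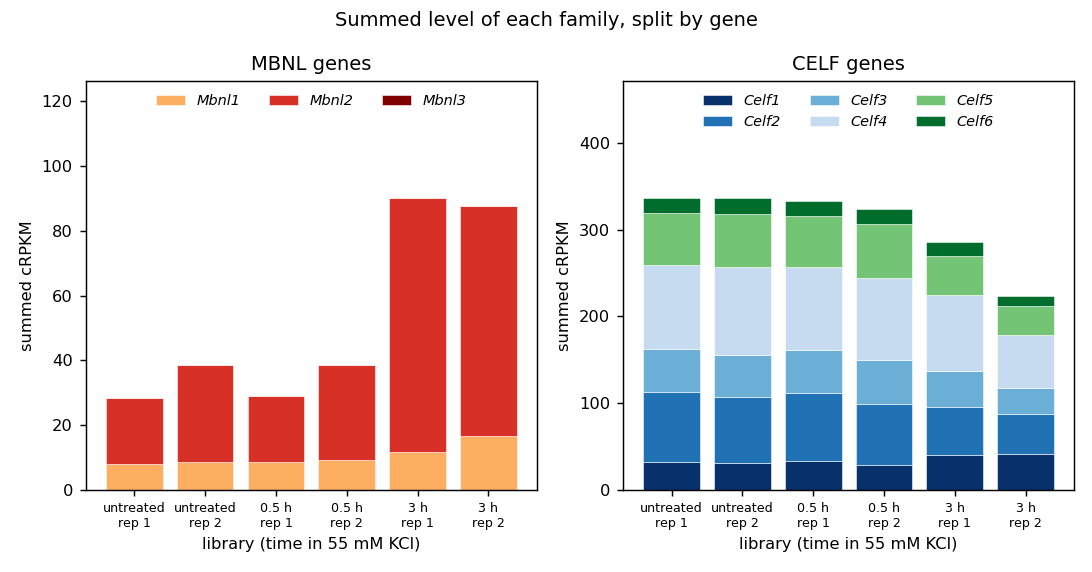
Summed cRPKM of the MBNL genes (left) and the CELF genes (right) in each of the 6 libraries, split by gene. The MBNL bars reach 90.2 and 87.6 at 3 h and no more than 38.7 in the other libraries; the CELF bars are lowest in the 3 h libraries, at 285 and 224.

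At 0.5 h none of the 9 genes was called. EdgeR, DESeq2, limma and the fit with the replicate block each called 0 of 9, and 0 had an unadjusted p under 0.05, where edgeR called 0.0377% of all genes higher and 0% lower (0.0818% and 0% with the block). Mbnl1 had both 0.5 h libraries above both untreated ones in log2 CPM, as had 11.9% of all genes, and Celf4 and Celf5 had both below, as had 9.81%. The edgeR adjusted p was 1.00 for each. Mbnl2 stood at 20.2 and 29.4 cRPKM at 0.5 h and 20.3 and 30.1 in untreated neurons, almost the same value within each replicate number. Its log2 difference was −0.05, with an interval of −0.65 to 0.55. Mbnl1 stood at 8.59 and 9.15 cRPKM at 0.5 h and 7.96 and 8.45 in untreated neurons, a log2 difference of 0.09 with an interval of −0.28 to 0.46. Celf1 had 32.9 and 28.1 cRPKM at 0.5 h. Over the CELF genes the log2 differences ran from −0.09 (Celf2) to −0.01 (Celf6), each with an interval that spans 0.

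The 3 h and 0.5 h groups were also compared directly, which tests whether the effect of KCl differed between the times, since both are set against the same untreated libraries. Mbnl2 was higher at 3 h, by 1.67 ± 0.25 on the log2 scale (adjusted p = 0.020, edgeR), and so was Mbnl1, by 0.74 ± 0.15 (adjusted p = 0.038). Of all genes 6.39% were called higher and 4.87% lower in this comparison (11.3% in all), and of the 9 genes 2 were higher and 0 lower (3 higher and 2 lower at an unadjusted p under 0.05; DESeq2 called 5 in all and limma 2). With the block Celf1 was also called higher (0.49, adjusted p = 0.014) and Celf2 lower (−0.49, adjusted p = 0.020), where the block called 15.6% of all genes in each direction and 31.2% in all. The libraries of the 2 times did not overlap in 3 genes that stood higher at 3 h and 4 that stood lower, as in 27.7% and 29.6% of all genes. Celf5 differed by −0.54 ± 0.19 (adjusted p = 0.12). Mbnl1 lost its call when any 1 of the 4 untreated and 0.5 h libraries was left out (adjusted p 0.080 to 0.18), with library totals (0.063) and in a fit of the 2 times alone (0.080). Mbnl2 lost it without 0.5 h replicate 1 (0.10) or 0.5 h replicate 2 (0.092), and 0 of all genes were called in those 2 fits.

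The genes around the myotonic dystrophy mechanism were followed as a list of 14, all tested: the disease loci, and known partners and modifiers of MBNL and CELF proteins. At 3 h 4 were called higher and 1 lower (block fit 6 and 2), where 8.71% of all genes were called higher and 6.84% lower (block fit 18.6% each way), and the median log2 difference was 0.08. Dmpk, the kinase gene whose human counterpart carries the CTG expansion of the first form of the disease, had 9.93 and 11.0 cRPKM at 3 h, against 4.38 and 5.16 in untreated neurons (1.19 ± 0.20, adjusted p = 0.019, edgeR). Six5, the homeobox gene next to it, fell to 0.46 and 0.31 cRPKM at 3 h, against 1.35 and 1.41 in untreated neurons (−1.78 ± 0.27, adjusted p = 0.015). The neighbours therefore changed in opposite directions.

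Cnbp, the zinc finger gene whose human counterpart carries the CCTG expansion of the other form, rose by 0.61 ± 0.13 (adjusted p = 0.033). Hnrnpf, which encodes a G-tract binding splicing factor, rose by 0.69 ± 0.15 (adjusted p = 0.037). The related Hnrnph1, the fourth gene called higher, is named although it falls outside the rule for named genes and was chosen after its values were seen (0.54 ± 0.13, adjusted p = 0.043). The list had 0 members called without either untreated library, and 1 called higher when any 1 of 0.5 h replicate 1, 0.5 h replicate 2 and 3 h replicate 2 was left out. At 0.5 h 0 of 14 were called by edgeR, with 0 at an unadjusted p under 0.05 and 0 with the block.

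Genes whose exons MBNL proteins are known to control had counts of calls near the share of all genes. Of 20 such genes known from brain, 2 were called higher at 3 h and 0 lower (4 higher and 0 lower at an unadjusted p under 0.05; 4 and 1 in the block fit), where 8.71% of all genes were called higher and 6.84% lower (18.6% each way in the block fit), and the median was −0.12. Csnk1d, a casein kinase gene, had 64.7 and 69.8 cRPKM at 3 h, against 49.3 and 50.2 in untreated neurons (0.49 ± 0.09, adjusted p = 0.024, edgeR). Ppp1r12a, a myosin phosphatase subunit gene, had 24.2 and 30.0 cRPKM at 3 h, against 18.3 and 17.6 in untreated neurons (0.64 ± 0.11, adjusted p = 0.021). Of 17 such genes known from muscle or heart, 1 was called higher and 0 lower (2 and 1 at an unadjusted p under 0.05; 4 and 1 with the block). It was the calcium pump gene Atp2a1, at 0.15 and 0.23 cRPKM at 3 h, against 0.04 and 0.03 in untreated neurons (2.54 ± 0.33, adjusted p = 0.011). Without either untreated library 0 genes of both lists were called, and without either 0.5 h library 1 of the brain list was. Without 3 h replicate 1 the brain list had 2 lower, and the muscle list 3 higher and 1 lower, in a fit that called 11.9% of all genes higher and 11.2% lower.

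Of 20 genes whose RNA CELF proteins are known to bind or splice, 7 were called higher at 3 h and 0 lower (9 and 2 at an unadjusted p under 0.05, and 9 and 2 in the block fit), where 8.71% of all genes were called higher and 6.84% lower (18.6% each way in the block fit), and the median was 0.19. The list holds activity genes in their own right. The AP-1 genes Fos and Jun changed by 5.32 ± 0.19 (adjusted p = 0.0014, edgeR) and 1.18 ± 0.10 (0.0059). The survival gene Mcl1 had 61.9 and 71.2 cRPKM at 3 h, against 26.0 and 23.0 in untreated neurons (1.49 ± 0.13, adjusted p = 0.0060). Ptgs2, the inducible cyclooxygenase gene, changed by 4.70 ± 0.48 (0.0075). The count higher at 3 h was smaller when either untreated library was left out, in fits that also called far fewer of all genes. At 0.5 h 1 of the 20 was called higher, Fos (4.81 ± 0.19, adjusted p = 0.0063, edgeR), and 0 lower. Of all genes edgeR called 0.0377% higher there, and 0.0818% with the block. In the list 5 genes were higher at an unadjusted p under 0.05, and 2 were called higher with the block. Jun stood 0.95 ± 0.10 higher at 0.5 h (adjusted p = 0.12 in edgeR and 0.033 with the block).

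The genes most like Mbnl2 across the 6 libraries, by Pearson's r of log2 CPM among 12147 genes with a symbol and a mean of at least 1 cRPKM, were Nfatc2, Pcsk1 and Bdnf. Nfatc2, a calcineurin-regulated transcription factor gene, had r = 0.9996 and averaged 2.00 cRPKM untreated, 1.91 after 0.5 h and 6.15 after 3 h. Pcsk1, a prohormone convertase gene (r = 0.999), averaged 9.36, 8.90 and 56.4 cRPKM in the same order. Bdnf, a neurotrophin gene (r = 0.998), averaged 9.37, 9.61 and 49.0. These 3 share with Mbnl2 a level at 0.5 h close to that of untreated neurons and a higher one at 3 h. Among the 3 closest to Mbnl1 were Eaf1, which encodes a partner of the ELL elongation factor (6.82, 7.50 and 11.7 cRPKM in the same order), and Hspb6, a small heat shock protein gene (4.17, 4.46 and 6.25), each with r = 0.999. The values come from 3 conditions that share libraries and depth, so they describe likeness only.

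The 3′ UTRs set the MBNL genes apart from the CELF genes in base composition. In the longest coding transcript of GENCODE M21, the 3′ UTR was 33.0% G and C in Mbnl1, 32.8% in Mbnl2 and 32.2% in Mbnl3, and from 40.3% (Celf2) to 53.1% (Celf3) in the CELF genes. The median over 14780 tested genes was 44.7%. The AU pentamer ATTTA, a part of AU-rich decay elements, was found 10 times in Mbnl1 (2.95 per kilobase), 9 times in Mbnl2 (3.28 per kilobase) and 8 times in Celf4 (3.77 per kilobase). The median gene had 1.22 per kilobase, and Celf1 and Celf2 had 1.63 and 1.69. Of all tested genes' 3′ UTRs 66.3% held the pentamer. It is made of A and T only, so its density also goes with base composition, for which these values were not corrected. Mbnl3 and Celf6 had 0, and Celf3 and Celf5 had 1 each. The GU-rich element TGTTTGTTTGT, which CELF1 binds in decaying mRNAs, was in none of the 9 and in 3.70% of all tested genes' 3′ UTRs. Among 3′ UTRs of at least 2000 bases it was in 9.95%. Those of Mbnl1, Mbnl2, Celf1, Celf2, Celf4 and Celf5 are of that length. Only the strand of the transcript was searched, and which UTR these neurons used was not analysed here.

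Some limits apply to single genes. The library kit does not mark strand, and the annotation places antisense or opposite-strand RNA genes over exons of Mbnl2 (Gm26679), Celf2 (Gm26565) and Celf5 (Gm16105), whose reads cannot be told apart from those of the named gene. How reads that match several related genes were counted is not given in the sources used here.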

How the data were processed

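Gene expression was measured by RNA-seq in 6 libraries, made with TriReagent RNA and the TruSeq kit v2 per the labels. The submitters' processing notes name mm9 and Bowtie; no source used here gives versions or the annotation. Each file lists a gene identifier with 2 values and no header: an RPKM that the authors computed and called cRPKM, and a raw read count per gene that the authors deposited without normalization. Over 7690 genes above 2000 counts in each library, the median ratio of count to cRPKM followed the library totals within 0.00693%. GENCODE M21 named 94.9% of the genes with values.

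EdgeR 4.0.16 (R 4.3.3) tested the counts after TMM scaling. filterByExpr, set to a minimum of 10 counts, left 15895 genes. A single quasi-likelihood model held the 6 libraries and had no term but group, which leaves 3 residual degrees of freedom. Genes were called at a Benjamini-Hochberg adjusted p under 0.05 over all genes tested. Fold changes are log2 values ± SE. Alternatives were edgeR's RLE scaling, library totals, no filter on low counts, DESeq2 1.42.0, limma 3.58.1, the replicate block, a fit of the 2 groups compared, and each library left out.

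Differences between replicates 1 and 2 correlated across genes between groups (r = 0.81 for untreated and 0.5 h, 0.58 for untreated and 3 h, 0.61 for 0.5 h and 3 h), and a leading component (33.2% of variance) separated the numbers, so they were read as a pairing; this comes from the data, not the labels.

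The genes, lists and tests were chosen with earlier results of these data known. Named genes are all 9 family genes, up to 4 called genes of each list with the smallest adjusted p at 3 h, the 3 genes most like each called family gene, and Fos, Npas4 and Arc as a check of the treatment; 1 of the genes most like Mbnl1 is not reported here. Npas4 rose at 3 h (5.30 ± 0.39, adjusted p = 0.0046, edgeR) and Arc did (2.71 ± 0.22, 0.0059). At 0.5 h edgeR called Arc higher (2.92 ± 0.22, adjusted p = 0.043). It did not call Npas4 there (4.48 ± 0.37, adjusted p = 0.054), so even a large difference could go uncalled at 0.5 h.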

Additional observations from a re-analysis of the deposited data

Results flagged for a closer look

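The effect of KCl differed between the times for both MBNL genes that rose. The difference between the effects at 3 h and 0.5 h was 0.74 on the log2 scale for Mbnl1 (adjusted p = 0.038) and 1.67 for Mbnl2 (adjusted p = 0.020), from edgeR's test of 3 h against 0.5 h. Both 3 h libraries were above both 0.5 h libraries for each gene, as in 27.7% of all genes tested. In this comparison 6.39% of all genes were called higher. Mbnl2 was called under 11 of 13 alternatives and Mbnl1 under 7, so the call of Mbnl1 depended on the fit.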

How the results depend on the processing

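In 3 h against untreated, Mbnl2 and Mbnl1 were called higher under 11 of 13 alternatives each, with log2 changes from 1.38 to 1.92 and from 0.61 to 1.03; the 2 exceptions left out an untreated library. The count of the 9 genes called higher ran from 0 to 2 over the fits that left out 1 library, against 2, and was 3 with the replicate block and in DESeq2. The count called lower, 0, was 2 with library totals only, 2 in DESeq2, 2 with the replicate block, and 0 to 5 over the fits without 1 library. In 3 h against 0.5 h, the count higher, 2, was 1 with library totals only and 1 with only the 2 groups compared, and ran from 0 to 2 without 1 library; the count lower, 0, was 1 with library totals only, 2 in DESeq2, 1 with the replicate block and 0 to 5 without 1 library. At 0.5 h both counts were 0 under every alternative. At 3 h against untreated, each gene but Mbnl3 kept its direction under all 13 alternatives. The cause of these shifts was not tested, apart from the smaller fits. Depth limits Mbnl3 alone, at 10 to 28 counts. Scaling moved the median of all genes by at most 0.08 on the log2 scale. The block changed no call of the 9 genes other than those given.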
